A study of Drosophila virilis and Drosophila yakuba with 2 samples.

Results

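The genes described here encode enzymes of glycolysis and of its glycerophosphate branch, measured in heads of adult female flies. They were taken by symbol from the gene tables of Drosophila virilis and Drosophila yakuba, as rows named Gapdh1, PyK, Gpdh, Pgi, Tpi, Pgk or Ald. Of these 7 symbols, 1 was found among the 14491 gene models of virilis (Gpdh) and 5 were found among the 16077 models of yakuba (Gpdh, Gapdh1, PyK, Pgi and Tpi), 6 models of 30568 in all. No model carried the symbol Pgk or Ald in either table, so those 2 steps were not analysed here. The virilis flies were wild type, of stock 15010-1051.87, and the yakuba flies were wild type, of stock 14021-0261.01. Both were mated females aged 2 to 5 days, whose heads gave the total RNA for 1 library per species. No mutation, agent or treatment is named in the labels of either. D. yakuba is a close relative of D. melanogaster, and D. virilis is a distant one from another subgenus.

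Glycolysis splits glucose into triose phosphates and oxidises these to pyruvate, yielding ATP and NADH. The steps from hexokinase to aldolase and triose phosphate isomerase consume ATP, and the steps from glyceraldehyde-3-phosphate dehydrogenase to pyruvate kinase return it. Glycerol-3-phosphate dehydrogenase draws the triose dihydroxyacetone phosphate into a side branch, in which NADH is turned back to NAD and glycerol-3-phosphate is made. In flies this branch is known as part of the shuttle that feeds flight muscle mitochondria, and glycerol-3-phosphate is also the backbone of glycerolipids. Fly flight muscle has little lactate dehydrogenase, and the photoreceptors, brain and glia of the head are also users of sugar.

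Levels are given in FPKM, the fragments per kilobase of gene model scaled to the library total, so genes of different length can be set side by side within a library. Depth was read from the steps of low FPKM values and came to about 70750000 fragments in virilis (70000000 to 72750000 over nearby totals that matched nearly as well) and 62500000 in yakuba (61250000 to 64750000). The 95% exact Poisson intervals below assume 1 kb of effective length, since only the span of each model is given, introns included. They cover counting error only. With 1 library per species there was no replicate error and no test, and species, annotation, mapping and library cannot be told apart. Photoreceptor markers were present in both libraries, ninaE at 8636 FPKM in virilis, and Arr1 and chp at 2177 and 378 FPKM in yakuba, where ninaE was not found by symbol. No glial marker of the 11 listed was found by symbol in either table.

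All 6 models were among the highly expressed genes of their library. In virilis, Gpdh was at 203 FPKM (200.2 to 207), which placed it at rank 360 of 14491 models and 32.5 times over the median model at 6.26 FPKM. In yakuba, the 5 enzymes ran from Tpi at 104 FPKM to Gapdh1 at 810 FPKM with a median of 225 FPKM, against 4.20 FPKM for the median model. At least 100 FPKM was reached by the 1 virilis gene and by all 5 yakuba genes, where 5.03% of all virilis models and 3.94% of all yakuba models lay that high. Models with a symbol reached 100 FPKM more often than the rest, 16.8% of them in virilis and 27.4% in yakuba. Percentiles among the 279 virilis and 497 yakuba models with a symbol were therefore lower: 87.5 for virilis Gpdh, and from 73.0 for Tpi to 92.0 for Gapdh1 in yakuba. Among models within 1.5 times of its own span, each gene stood about as high as among all models, at percentile 98.0 for virilis Gpdh and at 96.9 to 99.4 for the yakuba genes.

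**Figure D1:**
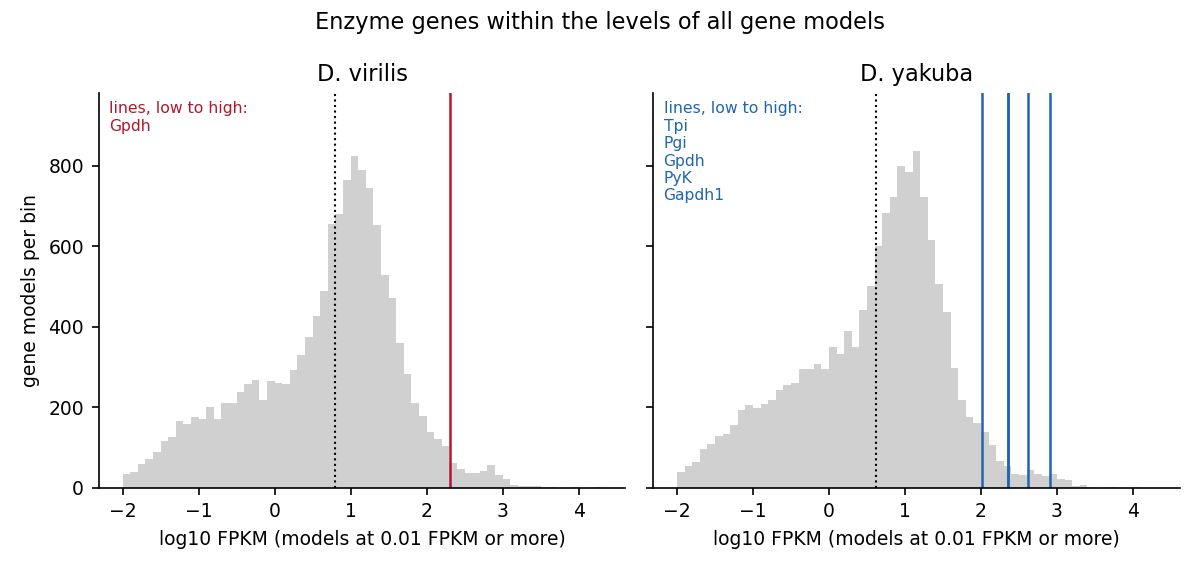
Number of gene models per bin of log10 FPKM in the virilis library (left) and the yakuba library (right), for models at 0.01 FPKM or more; the dotted line is the median of all models and coloured lines are the enzyme genes. The virilis line (Gpdh, 203 FPKM) and the 5 yakuba lines (104 to 810 FPKM, with Pgi and Gpdh on top of each other) lie in the upper tail.

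Glyceraldehyde-3-phosphate dehydrogenase, the step that oxidises the triose and reduces NAD, had the highest level of the yakuba enzymes. Gapdh1 (FBgn0013924) lay on 2L from 16352034 to 16353032, in the authors' coordinates counted from 1, and had 810 FPKM (803 to 818), rank 91 of 16077. Its span of 999 bp was the shortest of the 5 and divides by 3, as the coding part of an intronless model does. It was 7.79 times as high as Tpi and 2.32 times as high as Pglym78, the next enzyme found after it. The nearest genes with a symbol were the translation factor gene eIF-5A at 785 FPKM and the ribosomal protein gene RpL40 at 826 FPKM. D. melanogaster has a close paralog, Gapdh2. No yakuba model carried that symbol, and how reads of such copies were divided is not given, so the Gapdh1 value is uncertain to that extent.

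Pyruvate kinase, which makes pyruvate and ATP in the last step, was second. PyK (FBgn0068090, 3R, 19039097 to 19042051, span 2955 bp) had 413 FPKM (408 to 418) and rank 194. It stood between the muscle actin gene Act57B at 406 FPKM and the elongation factor gene Ef1beta at 422 FPKM. Between Gapdh1 and PyK in the pathway, the phosphoglycerate mutase gene Pglym78 had 349 FPKM (344 to 353), just under PyK and outside its counting interval.

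Phosphoglucose isomerase and triose phosphate isomerase, which interconvert sugars without using ATP, differed from each other. Pgi (FBgn0013171, 2L, 17456709 to 17459122, span 2414 bp) had 224 FPKM (220.3 to 228) and rank 296. Tpi (FBgn0025012, 3R, 26890706 to 26891995, span 1290 bp) had 104 FPKM (102 to 107) and rank 610, the lowest of the 5. Pgi was 2.15 times as high as Tpi. In level, Tpi lay between the elongation factor gene eEF1delta at 100.5 FPKM and the mitochondrial superoxide dismutase gene Sod2 at 106 FPKM.

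At the branch point, Gpdh of yakuba (FBgn0017652, 2L, 13248522 to 13252319, span 3798 bp) had 225 FPKM (221 to 229) and rank 295, next to Pgi. Their levels differed by a factor of 1.00 and their counting intervals overlapped, also when the whole span was taken as length. Gpdh was 2.16 times as high as Tpi, which works on the same triose, and PyK and Gapdh1 were 1.84 and 3.61 times as high as Gpdh. The order in yakuba was thus Gapdh1, PyK, then Gpdh and Pgi together, then Tpi. Together the 5 genes held 0.422% of the summed FPKM of the library.

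The other glycolytic genes, by a list of 18 symbols of which 6 were found in yakuba and 0 in virilis, filled in part of the pathway. The hexokinase genes Hex-A and Hex-C, whose products phosphorylate glucose, had 77.8 FPKM (75.6 to 80.0) and 74.2 FPKM (72.0 to 76.3), intervals that overlapped. Pfk, the gene of phosphofructokinase, the main regulated step, had 84.0 FPKM (81.8 to 86.3). The hexokinase genes Hex-t1 and Hex-t2, known for expression in the D. melanogaster testis, had 0.492 FPKM (0.334 to 0.700) and 0.374 FPKM (0.238 to 0.559) in these female heads. Hex-A was 158 times as high as Hex-t1.

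Set along the pathway, the yakuba genes found by symbol were lower before the triose oxidation step than from it onward. Steps without a model by symbol, among them Ald before it and Pgk after it, are missing from this comparison. The 5 genes from Hex-A and Hex-C through Pgi, Pfk and Tpi had a median of 84.0 FPKM and a range of 74.2 to 224 FPKM. The 3 genes from Gapdh1 through Pglym78 to PyK had a median of 413 FPKM and a range of 349 to 810 FPKM, without overlap. This grouping was made after the values were seen and leaves out the testis hexokinases, and with them the earlier steps reach down to 0.374 FPKM. Among the steps known for control of the flux, PyK was 4.91 times as high as Pfk.

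**Figure D2:**
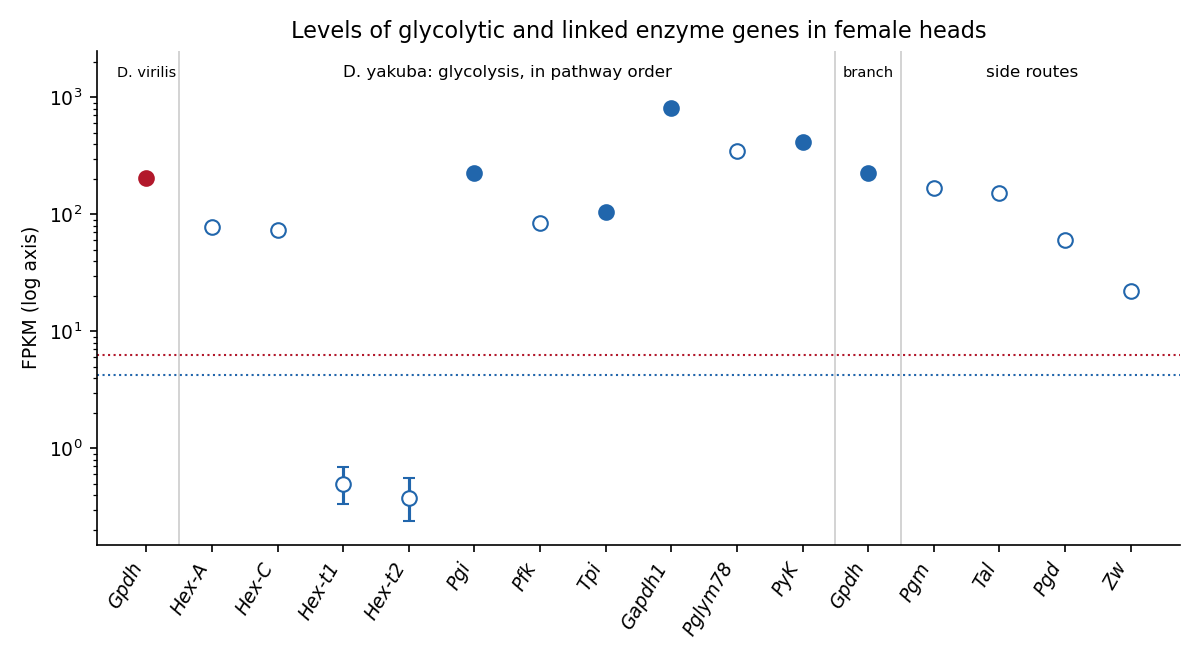
FPKM on a log axis for virilis Gpdh (red, left) and for yakuba genes (blue) in pathway order, then the Gpdh branch and side routes; filled points are the 6 models chosen by the rule, open points other genes, bars the 95% counting intervals at 1 kb, dotted lines the median model of virilis (red) and yakuba (blue). In yakuba Gapdh1 (810 FPKM), PyK (413 FPKM) and Pglym78 (349 FPKM) stand above the earlier steps found by symbol, and Hex-t1 and Hex-t2 lie under 1 FPKM.

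Genes of linked routes were found only in part, and by symbol only in yakuba, apart from Adhr. Pgm, which joins glycogen and trehalose to glycolysis, had 169 FPKM, and was the only one found of 13 glycogen and trehalose symbols. Of the pentose phosphate list 3 of 11 symbols were found. Tal, a symbol used for transaldolase, had 151 FPKM, and the 6-phosphogluconate dehydrogenase gene Pgd had 60.3 FPKM. Zw, the glucose-6-phosphate dehydrogenase gene that opens this route, had 22.3 FPKM, against 224 FPKM for Pgi, which acts on the same substrate. Scsalpha, of the citric acid cycle enzyme succinyl-CoA synthetase, had 168 FPKM and was the only one found of 24 symbols for pyruvate oxidation and that cycle. No symbol of the lists for gluconeogenesis (8) or for glycerophosphate oxidation and glycerolipid synthesis (11) was found in either table. Adh, whose product also reduces NAD, stood at 4341 FPKM in yakuba, 5.36 times over Gapdh1. Its neighbour Adhr was listed at 0 in virilis and at 3.05 FPKM in yakuba.

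Gpdh was the only one of these enzymes named in both tables, and its level was similar in the 2 species. It had 203 FPKM (200.2 to 207) in virilis (FBgn0013081, scaffold_12963, 3213696 to 3218379, span 4684 bp), against 225 FPKM (221 to 229) in yakuba. As deposited, the virilis value was 0.905 times the yakuba value, a log2 ratio of -0.14 on the log2(FPKM + 1) scale. The 52 shared symbols that reached 1 FPKM in each library had a median log2 ratio of -0.20. Relative to this median, the log2 ratio of Gpdh, virilis over yakuba, was 0.06 (counting interval 0.02 to 0.09). The sign therefore depended on the centring, and neither value came near 2-fold. Unlike the intervals of the levels, that of the ratio is a normal approximation from the Gpdh counts at 1 kb. It takes the median of the 52 symbols as free of error, so it does not show that Gpdh lay above that median. Of the 41 shared symbols that reached 10 FPKM in either library, 19.5% were past 2-fold of the median ratio and 9.76% past 4-fold, and Gpdh was past neither. In this set MtnB and MtnC had the same yakuba level and span (15.7 FPKM, 193 bp), so their ratios may not be independent. MtnC, at 0 FPKM in virilis, was among those past 4-fold.

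Among the other 40 of these symbols, 17 had a larger ratio towards virilis and 23 a smaller one, an order that no scaling of the libraries changes other than through the pseudocount. The ratio of Gpdh was nearer to the centre than the median distance of the others, which was 0.48 on the log2 scale. The spans of the Gpdh models differed by a factor of 1.23 between virilis and yakuba, and the share of coding sequence in each span is not given. The rank of Gpdh was 360 of 14491 in virilis and 295 of 16077 in yakuba.

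The 3 shared symbols whose pair of levels lay closest to Gpdh, by Euclidean distance in log2(FPKM + 1) over the 2 libraries, were Trx-2, Sod and Obp49a. The thioredoxin gene Trx-2 had 211 FPKM in virilis, against 203 FPKM in yakuba (distance 0.16). The superoxide dismutase gene Sod had 262 and 214 FPKM in virilis and yakuba (distance 0.37), and the odorant-binding protein gene Obp49a had 133 and 106 FPKM (distance 1.24). With 2 libraries, this likeness is only that of 2 levels.

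**Figure D3:**
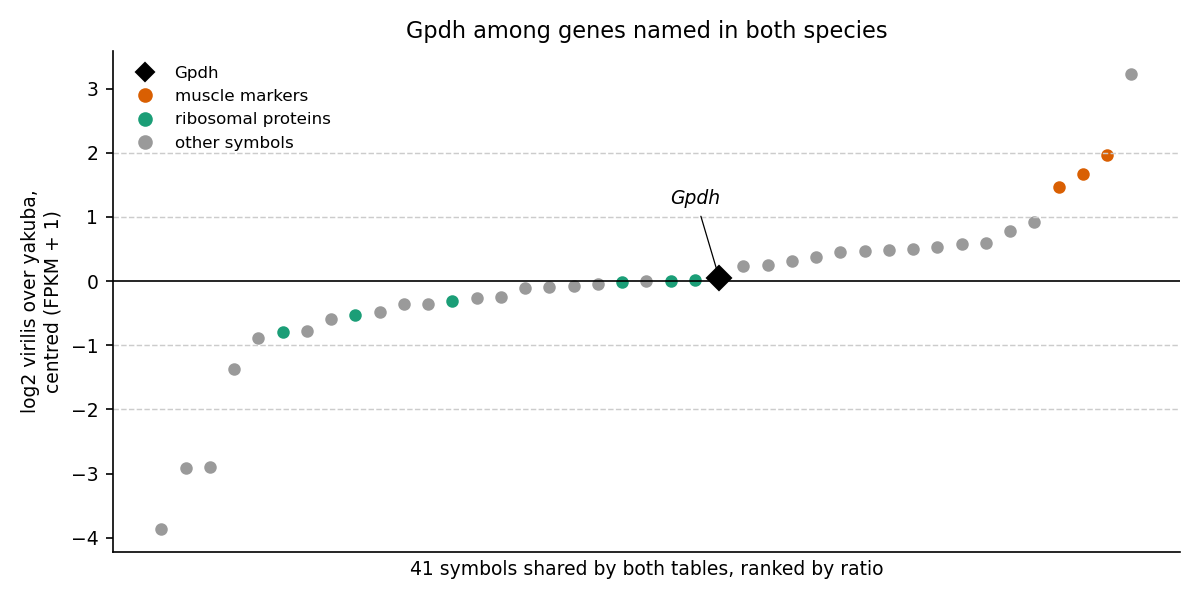
Log2 ratio of virilis over yakuba, on FPKM + 1 and centred on the median shared symbol, for the 41 symbols that reached 10 FPKM in either library, ranked from left to right; dashed lines mark 2-fold and 4-fold. Gpdh (diamond, 0.06) lies near 0, while the muscle markers (orange) lie between 1.47 and 1.97.

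Markers of muscle, a tissue with much Gpdh in flies, differed more between the libraries than Gpdh did. The shared markers Mhc, Mlc1 and wupA had log2 ratios of 1.47, 1.67 and 1.97. Per myosin heavy chain, Gpdh stood at 0.172 of the Mhc level in virilis and at 0.459 of it in yakuba. Per Mlc1 the values were 0.121 in virilis and 0.371 in yakuba, and per wupA 0.439 and 1.66. These quotients use no scaling between libraries. Of 19 muscle symbols, 5 were found in virilis (217 to 1685 FPKM, sum 3929) and 10 in yakuba (3.62 to 1053 FPKM, sum 3111), and only these 3 were shared. Of 13 fat body symbols, 3 were found in virilis (0.193 to 215 FPKM, sum 288, with Yp1 highest) and 2 in yakuba (0.667 to 39.2 FPKM, sum 39.8). Only Amyrel was found in both, at 0.193 FPKM in virilis and 0.667 FPKM in yakuba. The muscle sums and the fat body sums thus cover different genes in each library and do not compare the libraries. The part of tissue make-up in the Gpdh ratio was not tested, and in whole heads fewer cells of a type and less RNA per cell cannot be told apart. Against the 6 shared ribosomal protein genes, Gpdh stood at 0.208 to 0.369 of their levels in virilis and at 0.171 to 0.360 in yakuba. The quotient was higher in virilis for each of the 6, from RpS3 (0.369 in virilis, 0.360 in yakuba) to RpL32 (0.306 in virilis, 0.171 in yakuba).

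None of the 6 models overlapped another model, and in yakuba each stood far over its surroundings. The 20 models flanking the 5 yakuba genes, 2 on each side, had 0.0333 to 29.5 FPKM with a median of 3.41 FPKM. This was near the 4.20 FPKM of the median yakuba model, so the folds below largely restate the high levels of the enzyme genes. PyK was 38.4 times as high as the highest of its 4 neighbours, Pgi 32.2 times, Gapdh1 27.5 times, Tpi 12.7 times and Gpdh 12.4 times. The gap to the adjacent model ran from 375 bp beside Pgi to 6153 bp beside Gpdh. In virilis, GJ15418 began 1965 bp after Gpdh and had 110 FPKM, so Gpdh was only 1.86 times as high as its highest neighbour. In each species a long model on the other side of Gpdh had a very low level. In virilis this was GJ15408 (span 14746 bp) at 0.327 FPKM, and in yakuba GE25723 (span 12278 bp) at 0.0333 FPKM. The tables do not pair these models between species or give them a function.

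**Figure D4:**
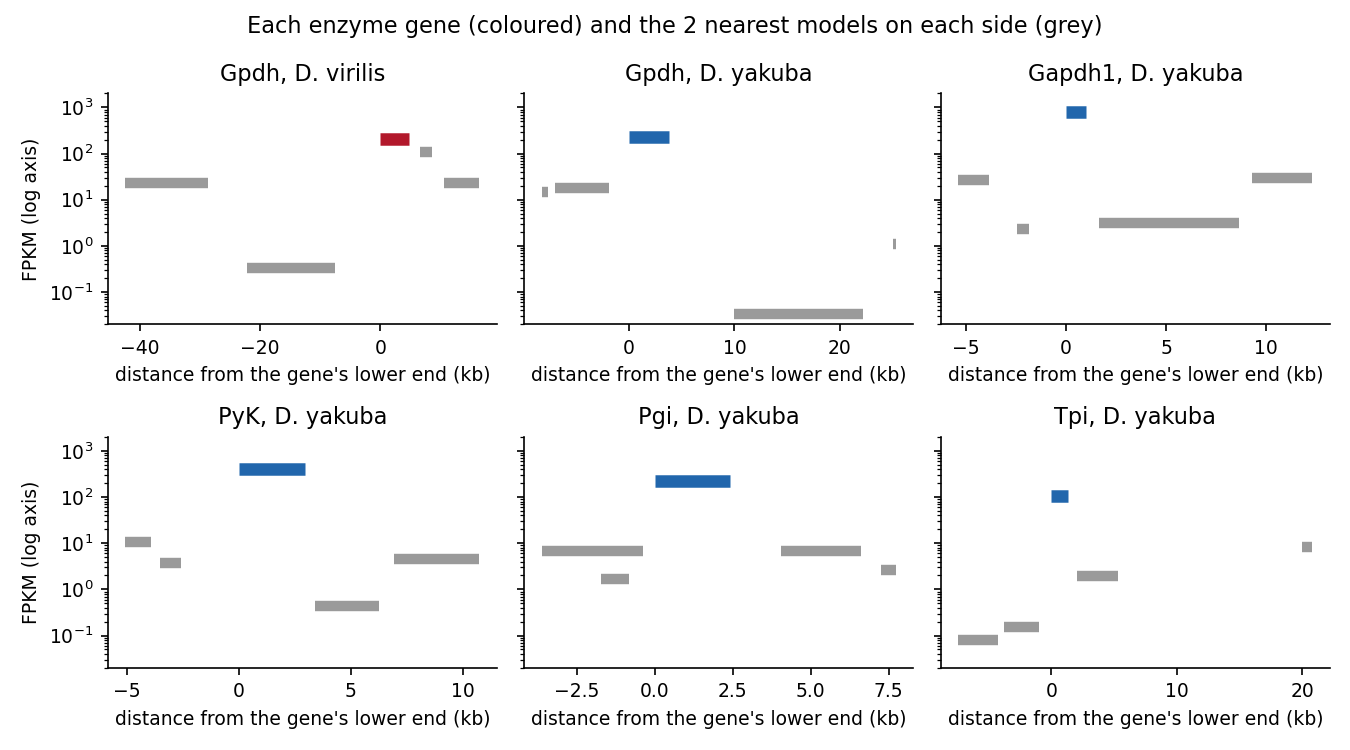
FPKM (log axis) of each enzyme gene (red in virilis, blue in yakuba) and of the 2 nearest models on each side (grey), drawn at their spans in kb from the lower end of the enzyme gene. In yakuba all neighbours lie under 30 FPKM, while virilis Gpdh at 203 FPKM has a neighbour at 110 FPKM.

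In position, the yakuba enzymes lay on 2L (Gapdh1, Pgi and Gpdh) and 3R (PyK and Tpi), and none was X-linked. Of the other sugar genes found, Hex-A, Pgd and Zw were on the X chromosome, at 77.8, 60.3 and 22.3 FPKM. The spans of the 5 enzymes, 999 to 3798 bp, reached from percentile 35.0 to 80.0 of all yakuba models. The gene with the shortest span, Gapdh1, had the highest FPKM, but the next shortest, Tpi at 1290 bp, had the lowest.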

How the data were processed

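Dissected heads were ground in Trizol and 1 µg of total RNA was used for each stranded library, per the labels' protocols. Each library has a table of FPKM values made by the authors, per the file headers. The tools named are TopHat and Cufflinks, per the submitters' processing notes; for their versions, the builds, the annotation and the use of strand, nothing is given in the sources used here.

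Symbols were read from the gene names without species prefix and transcript suffix; all other models have systematic identifiers, and the RefSeq gene table supplied, of another virilis assembly, matched 0 of them. Of spans under 900 bp, 66.8% in virilis and 67.6% in yakuba divide by 3 (33.3% by chance), so many models hold coding sequence only. Locus starts count from 0 and are printed from 1.

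Depth was estimated from models under 0.12 FPKM whose span was between 900 and 4000 bp and a multiple of 3, by the total and fragment length (160 bp in virilis, 165 bp in yakuba) that brought most values within 0.04 of whole fragments, up to 6.5. This held for 37.7% of 361 virilis and 38.4% of 398 yakuba models, against 3.88% and 4.52% for the median setting searched, so no count test was run. A floor of 3 fragments over 1 kb is 0.0424 FPKM in virilis and 0.0480 FPKM in yakuba. The search and the ratio were tested on simulated data. Ratios are log2((virilis + 1)/(yakuba + 1)), centred on the median shared symbol at 1 FPKM or more in both; calls needed 2-fold or 4-fold and 10 FPKM in the higher library. Named genes were all enzymes of the lists found by symbol, their neighbours in level and position, the 3 shared symbols nearest to Gpdh, and markers. The members and lists were chosen with earlier results of these data known. Alternatives changed the pseudocount, centring, filter, scaling and comparison set. Python 3.11.15, pandas 2.3.3, numpy 2.4.6, scipy 1.17.1 and matplotlib 3.10.9 were used.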

Additional observations from a re-analysis of the deposited data

How the results depend on the processing

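The log2 ratio of Gpdh (virilis over yakuba), 0.06 as reported, stayed within 2-fold under all 10 alternatives. It was negative without centring, at -0.14 as deposited and at -0.34 with each library rescaled to a sum of 1000000, an alternative chosen after seeing the data. It was 0.22 centred on ribosomal protein genes, 0.018 centred on symbols at 10 FPKM or more, and 0.0091 with no filter on low values. All of these values, negative and positive, lay outside the counting interval of 0.0216 to 0.0886. The alternatives changed only the pseudocount, centring, filter or scaling, so they do not probe differences between flies or libraries. The median of the 5 yakuba enzymes, 225 FPKM, was 104 FPKM with the other glycolytic genes, including the testis hexokinases, and 534 after rescaling to a sum of 1000000, where virilis Gpdh was 421. In the top 10% of all models lay 1 of 1 virilis and 5 of 5 yakuba genes, but among models with a symbol 0 and 1. The median of the other glycolytic genes, 76.0 FPKM, was 80.9 FPKM over those at 1 FPKM or more. No replicate could be left out, with 1 library per species. No paired analysis was possible because each species has 1 library. Counting intervals were widest, relative to the level, for Hex-t1 and Hex-t2, and at this depth the order of Hex-A and Hex-C and that of Gpdh and Pgi in yakuba could not be told. Where intervals were apart, they cover counting error only, so the order is that of 1 library and was not tested.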
